A study of Mus musculus with 6 samples.

Results

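Niban1, Bpifc, Stbd1, Btg4, Maoa, Lilrb4a, Lilr4b, Arap2, Upb1 and Ahnak are 10 genes picked for higher readings in mammary organoids cultured with doxycycline. They were selected on the contrast itself: all 3 arrays of doxycycline-treated organoids read above all 3 control arrays, as they did for 11.7% of all genes, with a large difference. Their differences are therefore given as a description, with no test. They are 10 of 19937 genes that the array annotation assigns to probe sets with 1 symbol, and each has 1 probe set. No filter on low values was applied, so none was lost to one.

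Expression was measured in epithelial organoids from mammary glands of age-matched female FVB mice that carry an inducible ErbB3 knockout, named ErbB3 DOX-KO in the labels. Digested gland fragments were grown in growth factor-reduced Matrigel for 14 days. Control cultures had no doxycycline and DOX cultures had 5 µM, with 3 biological replicates each, hybridised to 1 whole-transcript array per culture. All 6 samples have the same genotype. The labels do not give the driver of the inducible allele, the ages or the number of mice, and no sample used here had doxycycline without the knockout allele. An effect of the drug and an effect of the knockout therefore cannot be told apart. The labelled tissue was checked on luminal epithelial markers. These (Krt8, Krt18, Krt19, Epcam and Cdh1) averaged 10.40 to 10.43 on the log2 scale in control arrays and 9.44 to 10.05 in DOX arrays. Krt19 alone was weak, at 4.67 to 4.92 in controls. Krt8, Krt18 and Epcam lay below their controls in every DOX array, as 20.3% of all genes did, and Krt19 and Cdh1 overlapped. None passed in limma with all arrays (lowest adjusted p = 0.135). With DOX replicate 2 left out Krt8 and Krt18 fell (-0.74 and -0.64, limma adjusted p = 4.94e-04 and 0.00156), where 14.3% of all genes did, and the rest did not pass.

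The gene targeted by the knockout, Erbb3, was not lower in the DOX arrays. It read 9.78, 9.71 and 9.69 in the controls and 10.36, 9.31 and 9.82 in DOX replicates 1, 2 and 3, so the groups overlap and the difference was 0.10 (SE 0.29). With DOX replicate 2 left out it was 0.37 (SE 0.15, limma adjusted p = 0.105), and both remaining DOX arrays lay above every control. Which exons the allele removes is not stated in the labels, and probes of the set may lie in exons that remain. Erbb3 therefore gives no check that the DOX arrays are knockouts, and DOX and control below mean the arrays so labelled. Among the arrays, DOX replicate 2 differed most from the rest: across genes it correlated with each of them at 0.816 to 0.865, and the remaining 5 correlated with each other at 0.963 or more. It also read weakly expressed genes higher and strongly expressed genes lower than any other array, so values without it stand beside those from all 6 arrays. With 3 arrays a group, precision is limited by their number. Counts from the gene lists below stand against shares over all genes. With all 6 arrays 14.0% had an unadjusted p under 0.05, and in limma 0.12% were higher and 2.26% lower. Without DOX replicate 2, 12.3% were higher and 14.3% lower.

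The 10 genes were not chosen by pathway, a common pathway was not tested, and several are little studied in the mammary gland. Niban1 encodes a cytoplasmic protein induced by cell stress. Btg4 encodes an adaptor of the CCR4-NOT deadenylase, best known for clearing maternal mRNA in the oocyte. Maoa, Upb1 and Stbd1 act in metabolism: monoamine oxidase A of the outer mitochondrial membrane breaks down serotonin and noradrenaline, beta-ureidopropionase carries out the last step of pyrimidine breakdown, and starch-binding domain protein 1 tethers glycogen to membranes. Arap2 encodes a GTPase-activating protein for Arf proteins at focal adhesions, and Ahnak a giant scaffold protein under the plasma membrane. Lilrb4a and Lilr4b are close paralogues that encode immunoglobulin-like receptors of myeloid and mast cells, and Bpifc belongs to the family of bactericidal/permeability-increasing and lipid-binding proteins.

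The promoters of these genes differ widely in base composition. RefSeq promoters of the GRCm38.p6 assembly, from 250 bases before to 50 after the start site, were at hand for 9 of the 10 genes, all but Lilrb4a. Their GC content ran from 38.7% for Bpifc to 81.7% for Arap2, against a median of 52.7% over 32851 mouse promoters. The ratio of observed to expected CpG was 0.091 for Btg4, 0.093 for Lilr4b and 0.184 for Bpifc. It was 0.94 for Arap2 and 0.823 for Stbd1, against a median of 0.384. Promoters with both few and many CpGs are thus found among genes picked for a shared direction. The sequences below show that range, with the genes of the largest difference (Niban1 and Bpifc) beside the only genes with a motif match (Lilr4b and Arap2). They are 5′ to 3′ on the strand of the gene, at chr1:151571123-151571422, plus strand, for Niban1, chr10:86011811-86012110, minus strand, for Bpifc, chr10:51480362-51480661, plus strand, for Lilr4b and chr5:62766128-62766427, minus strand, for Arap2. Capitals mark motif matches.
Niban1: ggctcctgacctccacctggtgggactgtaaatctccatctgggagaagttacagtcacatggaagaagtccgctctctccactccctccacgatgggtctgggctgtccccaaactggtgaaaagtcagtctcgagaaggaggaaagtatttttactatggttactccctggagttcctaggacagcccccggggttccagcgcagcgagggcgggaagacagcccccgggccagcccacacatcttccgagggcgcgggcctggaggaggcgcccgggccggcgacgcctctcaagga
Bpifc: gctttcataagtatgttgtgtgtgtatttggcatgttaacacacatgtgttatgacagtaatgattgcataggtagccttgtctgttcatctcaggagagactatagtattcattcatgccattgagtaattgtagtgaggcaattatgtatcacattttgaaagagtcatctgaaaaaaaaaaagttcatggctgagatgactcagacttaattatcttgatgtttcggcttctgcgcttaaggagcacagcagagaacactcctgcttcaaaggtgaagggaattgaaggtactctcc
Lilr4b: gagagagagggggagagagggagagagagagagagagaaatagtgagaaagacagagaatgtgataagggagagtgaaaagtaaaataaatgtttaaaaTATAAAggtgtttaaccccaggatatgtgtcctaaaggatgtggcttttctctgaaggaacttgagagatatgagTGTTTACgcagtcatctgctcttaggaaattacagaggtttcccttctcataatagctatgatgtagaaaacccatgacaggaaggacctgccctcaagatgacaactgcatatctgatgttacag
Arap2: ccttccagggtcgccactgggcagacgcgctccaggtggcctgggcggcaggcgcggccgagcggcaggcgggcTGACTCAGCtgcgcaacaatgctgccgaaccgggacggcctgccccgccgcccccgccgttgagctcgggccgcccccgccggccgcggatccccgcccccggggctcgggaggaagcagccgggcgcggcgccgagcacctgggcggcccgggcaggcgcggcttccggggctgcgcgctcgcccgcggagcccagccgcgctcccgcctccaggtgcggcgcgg

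Motifs fixed by name and letters were searched on both strands of the 9 promoters. The composite of ATF4 and C/EBP (TGATGNAA), the E-box (CACGTG) and the glucocorticoid response element had no match in any of the 9, and 3.97%, 7.15% and 0.475% of all promoters hold them. The antioxidant response motif (TGACNNNGC) matched in Arap2, at position -176 from the start, and in 12.4% of all promoters. The FOXO motif (GTAAACA) matched in Lilr4b on the minus strand at -76, and in 3.65% of all promoters. The TATA box (TATAAA) matched in Lilr4b at -151, and in 13.6% of all promoters. No 2 of the 9 genes shared a motif.

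Niban1 showed the largest difference of the 10. It read 4.95, 5.21 and 4.91 in control replicates 1, 2 and 3 and 8.70, 6.71 and 7.99 in DOX replicates 1, 2 and 3. The DOX arrays all lay above the controls but spread over 1.99 log2 units, with DOX replicate 2 lowest. The means were 5.02 ± 0.16 and 7.80 ± 1.01 (SD, n = 3 each), a difference of 2.78 (SE 0.49) or 6.88-fold. Without DOX replicate 2 the difference was 3.33 (SE 0.19). The other Niban genes, Niban2 and Niban3, gave differences of -0.43 and 0.24 with overlapping groups (limma adjusted p = 0.636 and 0.531). Niban2 read 9.88 and 9.84 in DOX replicates 1 and 3 but 8.07 in DOX replicate 2, against 9.63 to 9.74 in controls. With that array left out, Niban3 rose by 0.35 (limma adjusted p = 0.0452) and Niban2 differed by 0.16 (limma adjusted p = 0.322).

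Btg4 read 4.31, 4.26 and 4.42 in the controls and 6.89, 5.82 and 5.97 with DOX. DOX replicate 1 was about 1 log2 unit above the other DOX arrays, and the control arrays lay within 0.16 of each other. The difference was 1.90 (SE 0.31), and 2.10 (SE 0.21) without DOX replicate 2. The adaptor relatives of Btg4 did not pass the test with all 6 arrays. Btg1, Btg2, Tob1 and Tob2 gave differences of 0.46, 0.01, -0.53 and 0.03 (limma adjusted p = 0.602, 0.995, 0.563 and 0.952), and in each the groups overlapped. In the 5 other arrays Btg1 rose by 0.99 and Btg2 by 0.58 (limma adjusted p = 0.00209 and 0.00521), while Tob1 and Tob2 gave 0.04 and 0.22 (limma adjusted p = 0.823 and 0.239). Of 19 measured genes of the BTG, TOB and deadenylase list 0 passed in limma, 1 had an unadjusted p under 0.05, and the median difference was -0.36 against 0.02 over all genes. In this list 3 rose and 1 fell without DOX replicate 2, where 12.3% and 14.3% of all genes did, and both medians were then 0.01. The smallest p values belonged to Cnot6, a deadenylase subunit, at -1.36 (limma adjusted p = 0.353), and Pan2, of a separate deadenylase, at -0.67 (limma adjusted p = 0.43). Cnot6 was the gene that fell in the 5 other arrays (-0.67, limma adjusted p = 0.00143), where Pan2 gave -0.30 (limma adjusted p = 0.145).

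Because Btg4 is best known from oocytes, oocyte markers were read beside it. None of the 12 passed in limma (0 with an unadjusted p under 0.05), and their mean level was 4.36 to 4.45 in controls and 4.41 to 5.41 with DOX, where DOX replicate 2 gave the highest value. Over the 12 genes the median difference was 0.36, and 0.08 when DOX replicate 2 was left out. Of the 12, 2 lay above all their controls in every DOX array, where 11.7% of all genes did. They were Bmp15 and Oosp1, both secreted by oocytes, with mean differences of 0.40 and 0.28 (limma adjusted p = 0.445 and 0.517). On DOX replicate 2 they read 0.77 and 0.65 above their control means, and genes with a like control level a median of 0.79 and 0.93. With that array left out they gave 0.21 and 0.09 (limma adjusted p = 0.2 and 0.58). The egg coat genes Zp1, Zp2 and Zp3 overlapped between groups, and Zp1 read 5.43 on DOX replicate 3 against 4.81 to 4.93 in controls. With DOX replicate 2 left out none of the 12 rose and 1, Nlrp5, fell (-0.40, limma adjusted p = 0.0444), where 12.3% and 14.3% of all genes did. The part of oocyte RNA in the reading of Btg4 was not tested.

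Maoa read 6.89, 6.74 and 6.71 in the controls and 8.95, 7.88 and 9.02 with DOX. DOX replicates 1 and 3 agreed within 0.07, and DOX replicate 2 lay about 1 log2 unit below them and still above the controls. The difference was 1.84 (SE 0.33), and 2.21 (SE 0.11) without DOX replicate 2. Maob encodes the second monoamine oxidase and is the next gene on the chromosome. It read 3.38, 3.83 and 3.52 in controls and 3.92, 5.04 and 4.39 with DOX, also without overlap, but its difference of 0.87 did not pass (SE 0.32, limma adjusted p = 0.29). Genes with a like control level read a median of 0.84 higher on DOX replicate 2, and without that array Maob rose by 0.58 (limma adjusted p = 0.026). Of 20 measured genes of monoamine synthesis, transport and breakdown 0 passed in limma, and 5 had an unadjusted p under 0.05, as 14.0% of all genes had. The lowest p values were those of Sult1a1, a sulfotransferase (-1.29, limma adjusted p = 0.106), and Slc6a2, the noradrenaline transporter (-0.94, limma adjusted p = 0.115). With DOX replicate 2 left out both fell (-1.54 and -1.05, limma adjusted p = 1.21e-04 and 7.01e-04). In the list 5 genes then rose and 4 fell, where 12.3% and 14.3% of all genes did.

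Stbd1 read 5.01, 5.26 and 4.86 in the controls and 7.60, 6.90 and 6.51 with DOX. Here DOX replicate 3, not replicate 2, was the lowest DOX array. The difference was 1.96 (SE 0.31), and 2.01 (SE 0.25) without DOX replicate 2. Of 25 measured genes of glycogen metabolism 0 passed in limma, 4 had an unadjusted p under 0.05 (14.0% of all genes had), and the median difference was 0.03. Gys1, glycogen synthase, and Pygl, a phosphorylase, gave -0.76 and 0.31 (limma adjusted p = 0.513 and 0.581), and -0.05 and -0.01 with DOX replicate 2 left out (limma adjusted p = 0.777 and 0.974). Pygb, the brain form of the phosphorylase, lay below its controls in all DOX arrays (-0.99, limma adjusted p = 0.197). Gabarapl1, the autophagy protein that binds Stbd1, lay above them (0.72, limma adjusted p = 0.263). Gaa, the lysosomal enzyme that degrades glycogen, differed by 0.11 (limma adjusted p = 0.909). In the 5 other arrays, Gabarapl1 and Gaa rose by 0.86 and 0.71 (limma adjusted p = 0.00304 and 0.00344), and 3 genes fell, with Pygb at -0.67 (limma adjusted p = 9.30e-04). Of all genes 12.3% rose and 14.3% fell there.

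Upb1 read 4.99, 4.99 and 5.37 in the controls and 7.02, 6.45 and 6.68 with DOX. Its DOX arrays lay within 0.57 of each other, and the difference was 1.60 (SE 0.23), or 1.73 (SE 0.15) without DOX replicate 2. The enzymes of the steps before it did not pass the test. Dpyd, dihydropyrimidine dehydrogenase, and Dpys, dihydropyrimidinase, gave differences of 0.17 and 0.38 (limma adjusted p = 0.634 and 0.579), and 0.04 and -0.02 (limma adjusted p = 0.836 and 0.932) without DOX replicate 2. Dpyd read 3.39 to 3.48 in controls, and its groups overlapped. Of 15 measured genes of pyrimidine breakdown and beta-alanine use 0 passed in limma, and 1 had an unadjusted p under 0.05. The smallest p values were those of Csad, of taurine synthesis (-0.71, limma adjusted p = 0.166), and Cndp2, a dipeptidase (-0.53, limma adjusted p = 0.437). Csad, once that array was left out, fell by 0.58 (limma adjusted p = 0.00344), 1 other gene of the list fell and none of them rose. Of all genes 14.3% fell and 12.3% rose there. Cndp2 then gave -0.24 (limma adjusted p = 0.155).

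Arap2 read 8.26, 8.12 and 8.30 in the controls and 10.59, 9.43 and 9.88 with DOX. The controls agreed within 0.18, the DOX arrays spread over 1.17, and the difference was 1.74 (SE 0.31), or 2.01 (SE 0.18) without DOX replicate 2. Its paralogues Arap1 and Arap3 gave -0.24 and -0.45 (limma adjusted p = 0.508 and 0.331), and Arap1 gave -0.15 with DOX replicate 2 left out (limma adjusted p = 0.38). All DOX arrays of Arap3 lay below its controls, and it fell by 0.45 without DOX replicate 2 (limma adjusted p = 0.0257). Cyth3, an exchange factor that activates Arf proteins, fell by 1.37 (SE 0.24, limma adjusted p = 0.0413). Its call was lost without control replicate 1, 2 or 3, DOX replicate 1 or DOX replicate 3 (limma adjusted p = 0.24, 0.228, 0.264, 0.0632 and 0.138). The call was also lost with a block on replicate number, with arrays centred on their medians and with a variance trend and robust estimation (limma adjusted p = 0.126, 0.101 and 0.0524). In the 5 arrays without DOX replicate 2 Cyth3 fell by 1.15 (limma adjusted p = 3.96e-05). Other Arf GTPase-activating proteins read higher: Agap1 lay above its controls in every DOX array (0.96, limma adjusted p = 0.17), and Asap1 gave 0.85 with overlap (limma adjusted p = 0.393). Both rose in those 5 arrays, by 1.21 and 1.26 (limma adjusted p = 6.72e-05 and 3.86e-04).

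Ahnak was the most even of the 10 between DOX arrays. It read 9.06, 8.75 and 9.05 in the controls and 10.41, 10.29 and 10.27 with DOX, so the DOX arrays lay within 0.13 of each other. The difference was 1.37 (SE 0.18), and 1.39 (SE 0.13) without DOX replicate 2. Its relative Ahnak2 read 6.77, 6.51 and 6.61 in controls and 7.79, 7.14 and 7.50 with DOX. All DOX arrays lay above the controls, and the difference of 0.85 did not pass in all 6 arrays (limma adjusted p = 0.148) but did without DOX replicate 2 (1.02, limma adjusted p = 2.27e-04). S100a10 and Anxa2, binding partners of Ahnak, read lower than their controls in every DOX array, with mean differences of -0.85 and -1.33 (limma adjusted p = 0.448 and 0.207). So did Anxa6, another annexin (-0.84, limma adjusted p = 0.191), which fell by 0.61 with DOX replicate 2 left out (limma adjusted p = 0.003). On DOX replicate 2 genes with a like control level read a median of -1.59, and without that array Anxa2 fell by 0.86 (limma adjusted p = 1.80e-04) and S100a10 differed by -0.27 (limma adjusted p = 0.102). Of 15 measured genes of the list 0 passed in limma with all arrays. An unadjusted p under 0.05 was found for 4 (26.7%, against 14.0% of all genes). The list had 3 that rose and 3 that fell without DOX replicate 2, where 12.3% and 14.3% of all genes did.

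Lilrb4a and Lilr4b are neighbours on the chromosome and close in sequence, so a probe set of either may also read the other, and their values are no independent pair. Lilrb4a read 4.68, 4.35 and 4.40 in the controls and 6.44, 6.09 and 6.00 with DOX, a difference of 1.70 (SE 0.21). Lilr4b read 3.91, 4.32 and 4.24 in the controls and 6.55, 5.63 and 5.67 with DOX, a difference of 1.80 (SE 0.30). Both were highest in DOX replicate 1, and neither overlapped its controls. The differences without DOX replicate 2 were 1.74 (SE 0.15) and 1.95 (SE 0.22). The 11 measured genes of related receptors and their signalling gave 0 calls in limma, 1 with an unadjusted p under 0.05 (14.0% of all genes had). Ptpn6, a phosphatase recruited by inhibitory receptors, and Cd300a, another inhibitory receptor, had the smallest p values (-0.80 and 1.02, limma adjusted p = 0.201 and 0.36). Pirb, the paired inhibitory receptor, differed by 0.75 (limma adjusted p = 0.479). From the 5 other arrays, Cd300a rose by 0.55 and Ptpn6 fell by 0.57 (limma adjusted p = 0.0368 and 0.00291), and Pirb differed by 0.18 (limma adjusted p = 0.487).

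These receptors are known from leukocytes, whose markers were read beside them. Of 5 pan-leukocyte markers 1 rose, Itgb2, an integrin subunit (1.06, SE 0.19, limma adjusted p = 0.042), and 2 rose without DOX replicate 2, where 12.3% of all genes did. The call of Itgb2 was lost without any single control array, without DOX replicate 1 and without DOX replicate 3 (limma adjusted p = 0.274, 0.195, 0.293, 0.0822 and 0.18). A block on replicate number also removed it (limma adjusted p = 0.18). Ptprc, the common leukocyte antigen, read 4.41 to 4.60 in controls and 4.77, 5.28 and 4.96 with DOX (0.52, limma adjusted p = 0.319). It was the other gene that rose without DOX replicate 2 (0.38, limma adjusted p = 0.0358). Cd52, Laptm5 and Coro1a overlapped between groups, with differences of 0.16, 0.03 and 0.04 (limma adjusted p = 0.768, 0.92 and 0.89), and of -0.10, -0.03 and -0.03 in the 5 other arrays (limma adjusted p = 0.71, 0.896 and 0.866). The mean level of the 5 markers was 4.49 to 4.67 in controls and 4.78 to 5.18 with DOX, without overlap. Of the 5, only Itgb2 and Ptprc lay above their controls in every DOX array, where 11.7% of all genes did. That mean therefore does not describe the whole list. Genes with control levels like those of the 5 read medians of 0.63 to 0.93 above control on DOX replicate 2. On that array Itgb2 read 1.18 and Ptprc 0.805 above the control mean. The median difference of the 5 was 0.16, or -0.03 without DOX replicate 2. The 10 macrophage and 8 mast cell markers gave 0 calls in limma, with 1 and 0 at an unadjusted p under 0.05. Their mean levels were 5.20 to 5.26 and 4.14 to 4.26 in controls, and 5.14 to 5.44 and 4.20 to 5.25 with DOX, both with overlap. With DOX replicate 2 left out, 1 macrophage marker rose and 1 fell, where 12.3% and 14.3% of all genes did, and no mast cell marker passed. Cd68, a lysosomal protein, rose by 1.01 and Cd14, a lipopolysaccharide receptor, fell by 1.06 (limma adjusted p = 1.03e-04 and 8.00e-05). From all 6 arrays they gave 0.49 and -1.92 (limma adjusted p = 0.568 and 0.286). Adgre1, a macrophage surface receptor, gave -0.09 and, with DOX replicate 2 left out, -0.22 (limma adjusted p = 0.816 and 0.257). The array gives no detection call, so none of these markers can be stated to be absent. Their part in the readings of Lilrb4a and Lilr4b was not tested, and in such bulk RNA more cells of a type and more RNA per cell cannot be told apart.

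Bpifc read 5.42, 5.24 and 5.68 in the controls and 8.93, 7.74 and 7.70 with DOX. The lowest DOX array lay 2.02 above the highest control, the widest gap among the 10, and the difference was 2.68 (SE 0.36) or 6.39-fold. Without DOX replicate 2 it was 2.86 (SE 0.28). Of 16 measured relatives 1 fell and none rose in limma. The gene that fell was Lbp, the lipopolysaccharide-binding protein of the acute phase, from 10.96 ± 0.10 to 6.31 ± 0.63 (SD, n = 3 each), a difference of -4.65 (SE 0.33, limma adjusted p = 0.00205). It kept that call in all 12 alternatives, with adjusted p up to 0.0379. Every DOX array lay above every control for 5 of the 16 relatives, against 11.7% of all genes. The largest difference was that of Bpifb9b, 1.12 (limma adjusted p = 0.465). Bpifb9b read 0.25, 2.83 and 0.29 above its control mean on DOX replicates 1, 2 and 3. Among the relatives 3 rose and 1 fell without DOX replicate 2, where 12.3% and 14.3% of all genes did. The family median difference was then 0.10, against 0.35 from the full set.

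**Figure D1:**
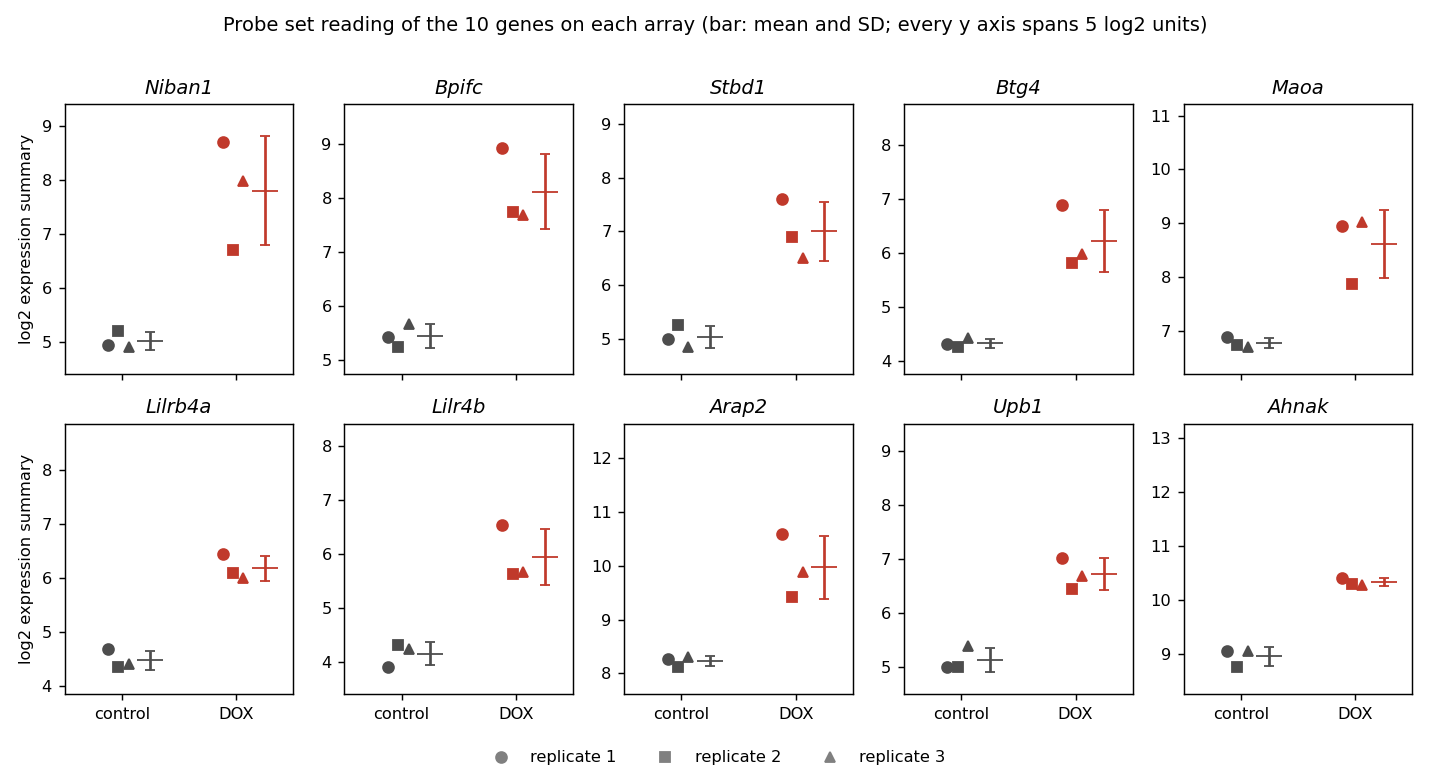
Log2 reading of the 10 genes (y axis, each spanning the same range) in control and DOX arrays (x axis), with a point per array and a bar for the mean and SD (n = 3). All DOX points lie above all control points in every panel, DOX replicate 1 (circle) is the highest DOX array for 9 genes and the spread with DOX runs from 0.13 for Ahnak to 1.99 for Niban1.

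The fit over all genes placed the size of these differences. In limma with all 6 arrays, 24 genes (0.12% of 19937) were higher at an adjusted p under 0.05 and 450 (2.26%) lower. All 10 genes are among the 24, a count from the contrast on which they were picked, so nothing is read from it. After a second quantile normalization 185 genes were higher and 626 lower, with 8 of the 10 among the former. Every DOX array lay above every control for 2341 genes, 11.7% of all. Ranked by difference among those 2341, the 10 stood at places 6 (Niban1) to 106 (Ahnak). In all, 106 genes (0.532%) lay above their controls with at least the difference of Ahnak, and 96 of them were not picked. Of the 106, 16 were called in limma, the 10 genes and 6 others. Just outside that limit, Abca1, a cholesterol transporter, also had 1.37 after rounding. The picks were thus neither all of the large differences nor the top of the list.

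The calls of the 10 were less steady than their sizes. Left out in turn, control replicates 1, 2 and 3 each left 0 of the 10 called in limma and 2 genes higher among all. Without DOX replicate 1 there were 5 of the 10 and 9 genes in all, and without DOX replicate 3 there were 3 and 7. All 10 were called without DOX replicate 2, where 2454 genes (12.3%) were higher and 2855 (14.3%) lower, and all 10 lay above their controls, as did 25.4% of all genes. The difference of each of the 10 was larger without DOX replicate 2, and the median over the 10 went from 1.82 to 2.01, against 0.02 and 0.01 over all genes.

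**Figure D2:**
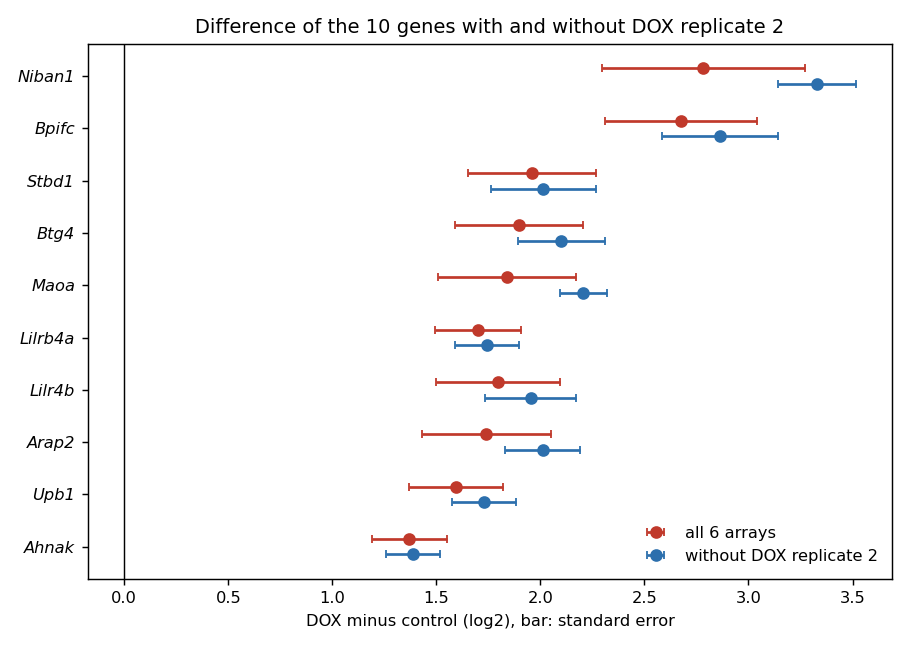
Difference of each gene, DOX minus control on the log2 scale (x axis), with all 6 arrays (red) and without DOX replicate 2 (blue), and bars for the standard error of the limma fit. The differences run from 1.37 to 2.78 with all arrays and from 1.39 to 3.33 without DOX replicate 2, which is the larger value for each gene and has the smaller standard error.

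The array that stood apart was not the highest for any of the 10 genes. DOX replicate 2 was the lowest of the DOX arrays for Niban1, Btg4, Maoa, Lilr4b, Arap2 and Upb1. DOX replicate 3 was the lowest for the other 4 and the highest for Maoa alone. Among the 2341 genes with every DOX array above every control, DOX replicate 2 was the highest in 79.6% and DOX replicate 1 in 15.8%. The 14 other genes called higher in limma were mixed. DOX replicate 2 was not the highest for Nupr1, Golga4, Vegfa, Hmga2, Phldb2, Tacc2, Gab2 and G930009F23Rik. It was the highest for Ddit3, Mir103-2, Malat1, Fn1, Itgb2 and Cgn, so the order is not particular to the 10. The order of the DOX arrays is not part of the rule, but the picks were also made on size, so no test is given. For genes of a like control level, DOX replicate 2 read a median of 0.93 above control near Lilr4b, 0.63 near Niban1, Stbd1 and Upb1, and -1.36 near Arap2 and Ahnak. The 10 genes lay 0.55 (Lilr4b) to 2.70 (Ahnak) above those medians on that array. Near the 10 genes those medians were -0.06 to 0.04 on DOX replicate 1 and -0.11 to 0.14 on DOX replicate 3.

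**Figure D3:**
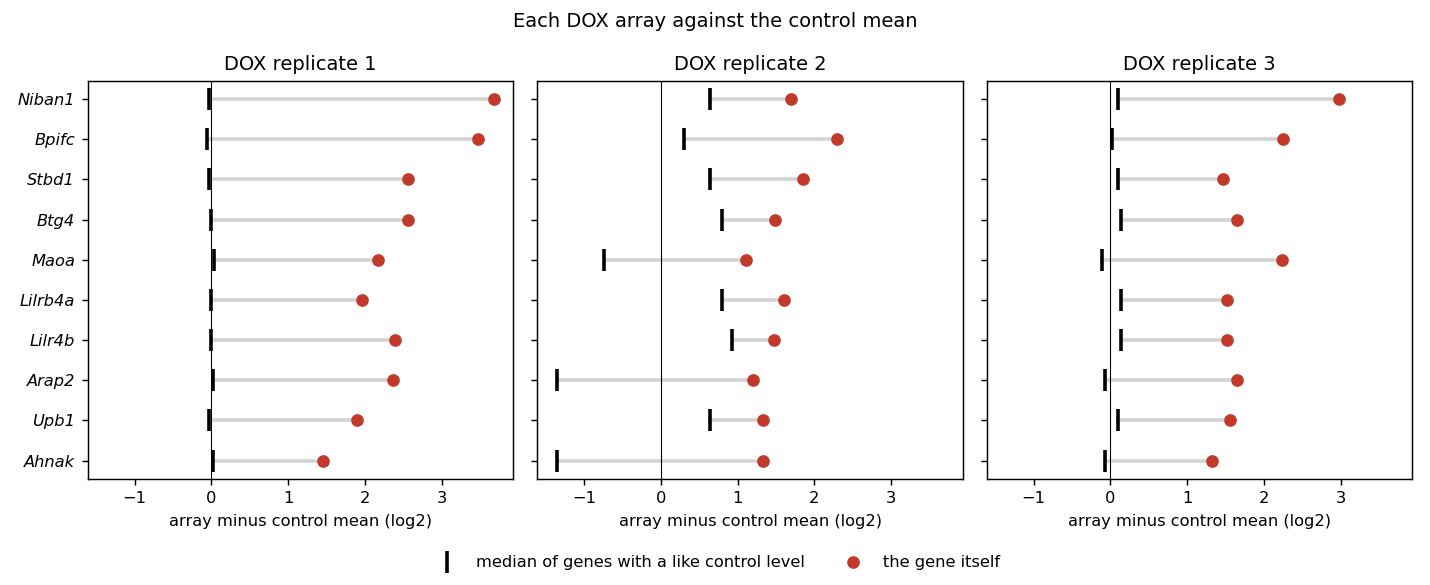
Distance of each gene (red points, rows) from its control mean on each DOX array (x axis, log2), with a black bar for the median of all genes in the same 10% step of control levels. The black bars stay near 0 on DOX replicates 1 and 3 and run from 0.93 down to -1.36 on DOX replicate 2, and every red point lies to the right of its bar.

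For 7 of the 10 genes the control mean lay below that of the median gene, 5.93. Those were Niban1, Bpifc, Stbd1, Btg4, Lilrb4a, Lilr4b and Upb1, and a reading near the lower end of the scale can understate a difference. The SD over the control arrays was 0.08 to 0.22, and for 3 of the 10 genes it was under the median of 0.10 over all genes. DOX replicates 1 and 3 had a median distance of 0.71 for the 10 genes against 0.17 over all genes. It was 0.07 for Maoa and 1.23 for Bpifc. The size of the difference thus varied between DOX arrays. With 1 array per culture, spread between cultures and spread between arrays cannot be told apart. The 10 were also picked for a large difference, unlike the genes as a whole.

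Niban1, Bpifc, Stbd1, Btg4, Lilrb4a, Lilr4b and Arap2 had others of the 10 among the genes with the most similar profile. Likeness was the root mean square difference over the 6 arrays between profiles set to the gene's own control mean, and the 3 nearest named genes were taken. The nearest to Niban1 was Bpifc (0.45), followed by Slc7a11, the cystine transporter (0.47), and Nupr1, a stress-induced chromatin protein (0.54). The nearest to Bpifc were Nupr1 (0.35), Niban1 (0.45) and Ddit3, also called Chop (0.46). Stbd1 was nearest to Lilr4b (0.22), Btg4 (0.23) and Lilrb4a (0.32).

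Ppp1r15a, also called Gadd34, was among the 3 nearest of 4 genes: Arap2 (0.10), Btg4 (0.18), Lilr4b (0.18) and Upb1 (0.20). Btg4 and Arap2 were 0.14 apart, Btg4 and Lilr4b 0.16 and Arap2 and Lilr4b 0.20, and Ern1, the ER stress sensor, was 0.20 from Arap2. The nearest to Upb1 was Vegfa (0.13), then Golga4 (0.16). Lilrb4a was nearest to Golga4, a golgin (0.14), Upb1 (0.22) and Vegfa (0.25). Maoa was nearest to Megf10 (0.14), Gadd45a (0.17) and Cyb5r1 (0.22), and Ahnak to Phldb2 (0.13), Fn1, which encodes fibronectin (0.16), and Hmga2 (0.17). Since these profiles hold the contrast that chose the genes, likeness is a description.

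By position, 4 of the 10 genes (Bpifc, Lilrb4a, Lilr4b and Upb1) lie on chromosome 10 of GRCm38.p6, which holds 4.71% of the measured genes placed there. Of these, Lilrb4a and Lilr4b are neighbours 4.6 kb apart whose probe sets may read each other, so the 4 are not independent, and no test was made. The nearest named and measured gene on each side gave 18 genes outside the set. None of the 18 passed in limma (0 higher, 0 lower), and their median difference was -0.01. An unadjusted p under 0.05 was found for 2 (11.1%, against 14.0% of all genes). Every DOX array lay above every control for 5 of the 18 and below for 1, against 11.7% and 20.3% of all genes. The largest difference among those 5 was that of Fbxo7, an F-box protein gene beside Bpifc (1.17, limma adjusted p = 0.102). Some of the 18 are distant, such as G6pd2 at 792.0 kb from Arap2. Of the 18, 3 rose without DOX replicate 2, where 12.3% of all genes did: Fbxo7 (1.41, limma adjusted p = 6.17e-05), Maob and Rnf2, a polycomb subunit beside Niban1 (0.63, limma adjusted p = 0.00283). The genes next to Btg4, Stbd1, Upb1 and Ahnak did not pass with either set of arrays.

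Across all 9 family and pathway lists, 150 genes were measured besides the 10. In limma with all arrays 0 rose and 2 (Lbp and Cyth3) fell, and 24 had an unadjusted p under 0.05 (16.0%, against 14.0% of all genes). Every DOX array lay above every control for 15 of the 150 and below for 31, where 11.7% and 20.3% of all genes did. Their median difference was 0.02, as over all genes. The 5 other arrays gave 21 that rose and 22 that fell, against 12.3% and 14.3% of all genes. These shares are near those of all genes.

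**Figure D4:**
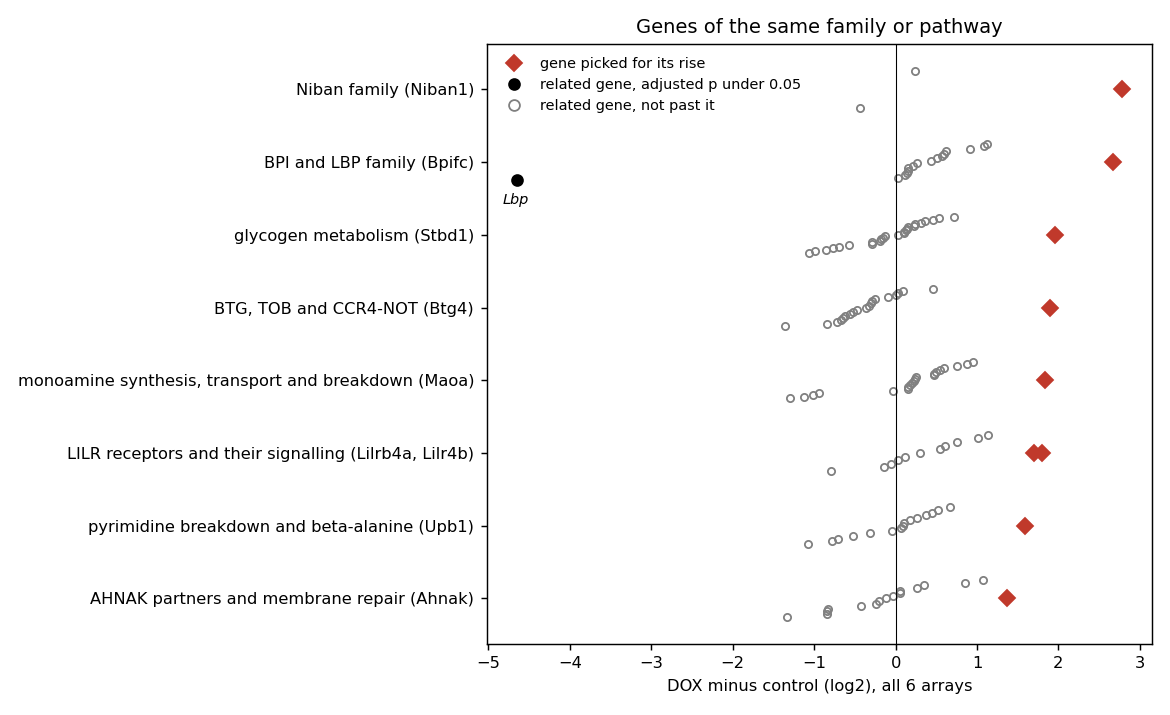
Difference, DOX minus control on the log2 scale with all arrays (x axis), of the genes in the family and pathway lists (rows) of all picked genes but Arap2, with the picked genes as red diamonds, genes past the limma threshold as filled points and all others as open points. Lbp at -4.65 is the only filled point, and no related gene lies as far right as the picked gene of its row.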

How the data were processed

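RNA of 6 organoid cultures was read on 1-colour mouse whole-transcript arrays. Each probe set has 1 deposited log2 value per array, which the authors made with RMA and the affy package, per the submitters' processing notes; versions and genome build are not given in the sources used here. RMA gives no detection calls. Of 34760 probe sets, 21640 have 1 gene symbol in the platform annotation, 1321 several and 11799 none here; the last 2 kinds were not used. For each of 19937 genes, the probe set brightest on average over the 6 arrays was kept.

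Groups came from the sample titles. The comparison of DOX with control used limma (version 3.58.1, R version 4.3.3) with no covariates and two-sided p values. Adjustment was by Benjamini-Hochberg over all genes, with a threshold of 0.05. The fit was also run on simulated data with independent noise for each gene. That noise held no shift across a whole array such as that of DOX replicate 2, so nothing is read from it here. Alternatives left out each array, blocked on replicate number, dropped the lowest genes, or changed the scaling, probe-set rule or variance model. Whether replicates came from different mice is not given, so p values measure the spread between these cultures. The 10 genes, the lists and the tests were chosen with earlier results of these data known. Genes named from a list are those called, else the 2 with the smallest p, and fixed relatives; Agap1, Asap1 and the markers named singly were chosen after their values were seen. Of 165 related genes listed, 150 were measured; the list of Arap2 is not reported by itself here. Promoters are from RefSeq.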

Additional observations from a re-analysis of the deposited data

How the results depend on the processing

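The 10 differences kept their sign in all 110 recomputed values, and 109 moved by less than the spread between replicates. Ahnak went to 1.56 after a second quantile normalization. All 10 lay above their controls in each setting where this was counted. The rule of the picks fixes sign and order when an array is left out, so nothing is read from either there. Blocking, dropping the lowest genes and averaging probe sets left each difference as it was, by construction. Counts of calls were less steady. With each array left out in turn, between 2 and 2454 genes were higher and between 61 and 2855 lower; of the related genes, 0 to 21 were higher and 1 to 22 lower. A second quantile normalization gave 185 higher genes, and 3 higher and 5 lower related genes. Centring arrays on their medians, and a variance trend with robust estimation, each left 1 related gene lower, with 5 and 7 of the 10 genes called. With the replicate block 3 genes were higher, 159 lower, 1 related gene lower (Lbp, with Cyth3 at adjusted p = 0.126 and the marker Itgb2 at 0.18) and 0 of the 10 called. The numbers do not clearly pair the samples: deviations of same-numbered arrays from their group means correlated at 0.117, 0.194 and 0.085, and control replicate 3 correlated best with DOX replicate 1. The cause of these changes was not tested. Signal near the lower end of the scale limits the values of the 7 weakly expressed genes.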
